A study of Homo sapiens with 48 samples.

Results

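The BCL2 family was followed through its mRNA levels and its splicing in IMR90 fibroblasts depleted of the splicing factors SF3B1 or RBM39. The 10 members described here were taken by gene name from the gene table: the anti-apoptotic genes MCL1, BCL2L1, BCL2 and BCL2L2, the effectors BAX and BAK1, and the BH3-only genes BCL2L11, BID, BBC3 and PMAIP1. They are 10 of the 19509 genes in that table, and they carry 62 of the 363278 exon, intron and alternative splice site events in the splicing table. Among these 62 events were 29 cassette exons, 22 introns, 7 alternative 3′ splice sites (Alt3) and 4 alternative 5′ splice sites (Alt5).

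IMR90 is an established line of human lung fibroblasts. All 48 libraries came from IMR90 cells carrying ER:RAS G12V, an oncogenic RAS fused to an oestrogen receptor domain that 4-hydroxytamoxifen (4OHT) switches on. Cells received DMSO or 4OHT for 6 days, were then transfected with siRNA, and spent the last 2 days in medium with 0.5% serum (FBS). Non-targeting control siRNAs (siNT1 and siNT2, together siNT), siRNAs to SF3B1 (siSF3B1-13 and siSF3B1-16) and siRNAs to RBM39 (siRBM39-06 and siRBM39-08) were each used in both treatments. There were 4 libraries per siRNA and treatment, and therefore 8 in each of 6 groups. The DMSO groups are uninduced cells of the same engineered line, so they also carry the construct, and a single cell line was used. In 4 of the 4OHT siNT libraries the treatment field names siNT1 where the title names siNT2, and the titles were followed. Since the labels do not state that libraries of a group came from separate cultures, the p-values measure the spread between these libraries, which may be technical. In a pooled group that spread also holds the difference between its 2 siRNAs, and libraries of the same siRNA were counted as separate.

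BCL2 family proteins set the threshold for apoptosis at the mitochondrial outer membrane. MCL1, BCL-XL (from BCL2L1), BCL2 and BCL-W (from BCL2L2) hold the pore-forming proteins BAX and BAK in check, and BH3-only proteins such as BIM (BCL2L11), BID, PUMA (BBC3) and NOXA (PMAIP1) release that block. Several of these genes are known to make proteins of opposite effect by alternative splicing. MCL1 mRNA that includes exon 2 encodes the long, anti-apoptotic MCL1-L, whereas joining exon 1 to exon 3 gives MCL1-S, a short form with pro-apoptotic activity. SF3B1 is the part of the U2 particle that holds the branch point near the 3′ end of an intron, RBM39 is a splicing factor related to the U2AF proteins that recognise the same region, and senescent fibroblasts are known to lean on anti-apoptotic members of this family.

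The sequences of the exons and splice sites that the results turn on are shown first, since the measurements below count the reads joining them. All are from GRCh37, 5′ to 3′ on the strand of the gene, with exon bases in capitals and intron bases in lower case. Exon 2 of MCL1 lies at chr1:150550720-150550967 on the minus strand, between an intron 1 of 351 nt and an intron 2 of 752 nt. It was printed with 20 intron bases before and 10 after it, beside the end of exon 1 (chr1:150551309-150551338) and the start of exon 3 (chr1:150549958-150549987), which are joined when it is skipped.
MCL1 exon 2: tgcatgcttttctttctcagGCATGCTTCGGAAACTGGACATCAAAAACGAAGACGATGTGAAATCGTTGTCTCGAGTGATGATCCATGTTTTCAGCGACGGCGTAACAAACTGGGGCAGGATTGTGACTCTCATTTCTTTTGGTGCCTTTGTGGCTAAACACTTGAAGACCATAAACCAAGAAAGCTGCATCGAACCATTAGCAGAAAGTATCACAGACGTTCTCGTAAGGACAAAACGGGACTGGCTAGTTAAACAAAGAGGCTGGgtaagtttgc
MCL1 end of exon 1: CCACGAGACGGCCTTCCAAGgtaagggggt
MCL1 start of exon 3: ttttcttttttgttttctagGATGGGTTTG
The length of exon 2 leaves a remainder of 2 on division by 3, so that skipping it changes the reading frame. Of 8 annotated MCL1 transcripts, 4 hold the whole exon as coding sequence and 1 spans it without using it. The 3-exon transcript MCL1-202 encodes 350 codons, the 2-exon transcript MCL1-201 encodes 271, and both share 229 whole codons of exon 1. Of the last 20 intron bases, 15 are pyrimidines before exon 2 and 17 before exon 3, both ending in AG.

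In BAX, 2 neighbouring coding exons are shown because both were included less often after knockdown. The 52-nt exon lies at chr19:49458805-49458856 and the 147-nt exon at chr19:49458944-49459090, both on the plus strand and 87 nt apart. The 52-nt exon has a remainder of 1 on division by 3, whereas the 147-nt exon keeps the reading frame.
BAX 52-nt exon: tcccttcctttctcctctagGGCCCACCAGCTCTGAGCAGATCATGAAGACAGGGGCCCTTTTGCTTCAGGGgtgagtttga
BAX 147-nt exon: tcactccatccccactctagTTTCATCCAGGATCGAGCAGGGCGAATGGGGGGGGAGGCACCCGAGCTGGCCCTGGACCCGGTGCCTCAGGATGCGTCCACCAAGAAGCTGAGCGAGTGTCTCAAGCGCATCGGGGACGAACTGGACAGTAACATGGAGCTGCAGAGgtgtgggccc
In BCL2L1, which encodes BCL-XL, the varying event was the choice between 2 3′ splice sites 18 nt apart in the 5′ untranslated region. It is shown with 12 intron bases, and the capitals mark the 18 bases that only the longer form keeps (chr20:30310134-30310163, minus strand).
BCL2L1 alternative 3′ splice sites: tttttcctgaagCTCTTTCTCTCCCTTCAG
Of the 20 bases before the start of the longer form 14 are pyrimidines, against 16 before that of the shorter form. The longer form starts after an AAG triplet, and both 20-base stretches end in AG.

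Each library held between 31467221 and 52734636 gene counts. As a check of the labels, mean SF3B1 was 32.6 CPM (counts scaled to the library total) in the DMSO siSF3B1 group and 27.1 in the 4OHT siSF3B1 group, against 356 and 326 with siNT (log2 fold changes -3.45 and -3.59). Mean RBM39 was 27.2 and 16.2 CPM with siRBM39 against 169 and 119 with siNT (-2.64 and -2.89), and it rose with siSF3B1 (0.83 in DMSO and 1.06 in 4OHT). All 9 fibroblast markers were present, with a summed level of 8561 to 12401 cRPKM (reads per kilobase and sequencing depth, corrected for mappability) in DMSO and 3860 to 4742 in 4OHT. With siNT, 8 of these 9 were lower in 4OHT than in DMSO. Endothelial markers (2 of 3 in the table) summed to at most 0.9 cRPKM, and blood markers (21.2 to 29.98 in DMSO, 45.2 to 66.1 in 4OHT) were almost all CD68. The 3 epithelial markers in the table summed to 3.34 to 19.6 cRPKM in 47 libraries and to 33.4 in the remaining library, replicate 4 of siRBM39-08 in 4OHT. That library lay outside the range of the other 7 of its group for each of the 10 members, and its SF3B1 was 223 CPM against 405 to 443. Results of the 4OHT siRBM39 group are therefore also given without it where a call changed or the value moved appreciably. The sum of 19.6 came from the DMSO siRBM39 group, whereas the other DMSO groups reached at most 12.41. In the same group, replicate 1 of siRBM39-06 lay outside the other 7 for BAX (206 CPM against 110 to 168) and PMAIP1 (31.9 against 43.5 to 59.4). No DMSO library was left out on these grounds. In bulk RNA, fewer cells of a type and less RNA per cell cannot be told apart.

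The first question was whether depletion of either factor shifts MCL1 from the form with exon 2 to the form without it. MCL1 exon 2 was skipped in part after SF3B1 knockdown, by more points in 4OHT than in DMSO. With RBM39 knockdown in 4OHT the fall passed the permutation test but stayed below the 5 points that a call of the other events required. The measure is the percent spliced in (PSI), computed for an exon as the mean of the reads at its 2 inclusion junctions over that mean plus the skipping reads. With siNT the exon was nearly always included, with a lowest PSI of 96.5, a median of 100 and a highest of 100 in DMSO, and 97.7, 100 and 100 in 4OHT. With siSF3B1 the lowest, median and highest PSI were 82.2, 91.3 and 96.7 in DMSO and 73.3, 79.6 and 85.2 in 4OHT. With siRBM39 they were 95.97, 99.04 and 100 in DMSO and 93.0, 95.4 and 100 in 4OHT. The 8 libraries of siSF3B1 in 4OHT thus lay below all siNT libraries of that treatment, while the other knockdown groups overlapped with their controls at the upper end.

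**Figure D1:**
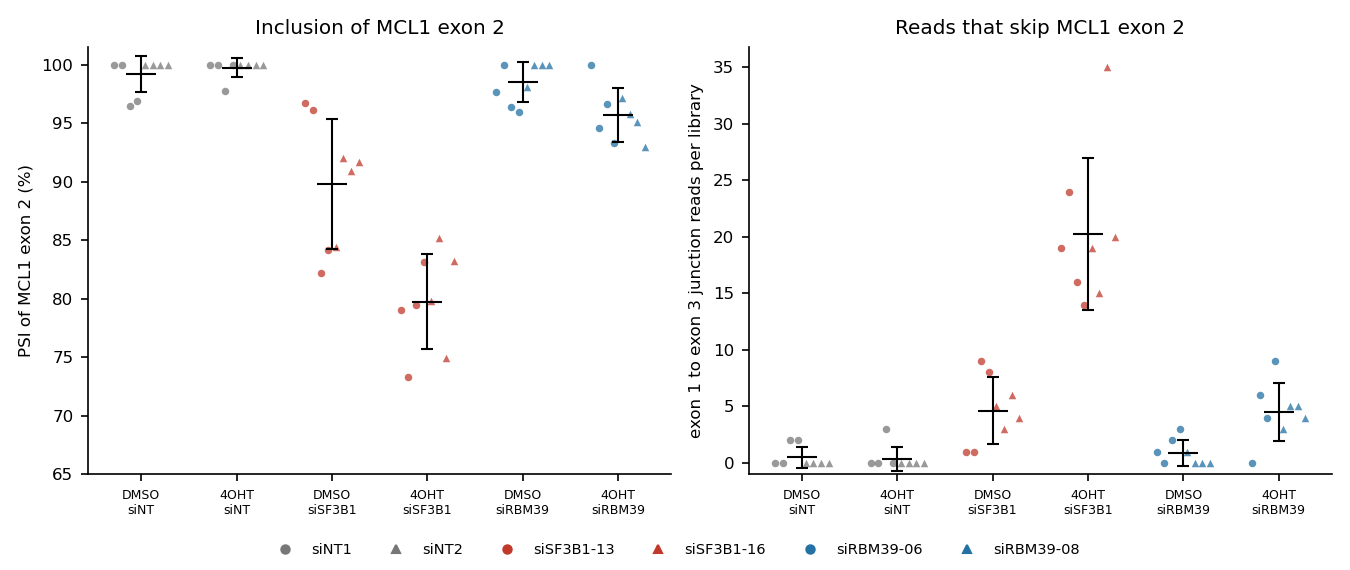
Inclusion of MCL1 exon 2 (left, PSI in %) and reads joining exon 1 to exon 3 (right, reads per library) in the 6 groups, with a point per library, shape and colour by siRNA, and a black bar for the mean ± SD of 8 libraries. The 4OHT siSF3B1 libraries have the lowest PSI, 73.3 to 85.2, and the most skipping reads, 14 to 35.

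Mean PSI fell by 9.40 points with siSF3B1 in DMSO, from 99.2 ± 1.55 to 89.8 ± 5.56 (SD, n = 8 each; two-sided exact permutation test of 8 libraries against 8, p = 0.000311, Benjamini-Hochberg adjusted over 9 comparisons 0.000933). In 4OHT it fell by 19.96 points, from 99.7 ± 0.813 to 79.8 ± 4.10 (n = 8 each; exact permutation p = 0.000155, the smallest this design can give, adjusted 0.000698). With siRBM39 the mean in 4OHT was 95.7 ± 2.28, a fall of 4.02 points (n = 8; exact permutation p = 0.0014, adjusted 0.00252), or 3.63 points without the library that stood apart. In DMSO the siRBM39 mean was 98.5 ± 1.72, a difference of -0.65 points that did not pass (n = 8; exact permutation p = 0.445, adjusted 0.467). In 4OHT the mean was 78.7 ± 4.05 with siSF3B1-13 and 80.8 ± 4.48 with siSF3B1-16 (n = 4 each).

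The knockdowns were also set against each other and across treatments. PSI was lower with siSF3B1 than with siRBM39 by 8.75 points in DMSO (exact permutation p = 0.000777, adjusted 0.00175) and by 15.9 points in 4OHT (exact permutation p = 0.000155, adjusted 0.000698). Between 4OHT and DMSO the exon did not differ detectably with siNT (0.55 points, exact permutation p = 0.467). PSI was lower in 4OHT by 10.01 points with siSF3B1 (exact permutation p = 0.00171, adjusted 0.00257) and by 2.82 points with siRBM39 (exact permutation p = 0.0174, adjusted 0.0224). The difference of the siSF3B1 effects, 4OHT minus DMSO, was -10.6 points (p = 0.00016 from 100000 permutations of residuals, adjusted over 2 tests 0.00032), and that of the siRBM39 effects was -3.36 points (p = 0.0064 from 100000 permutations), both being larger falls in 4OHT. These permutations treat all groups as equally spread. The siNT libraries, near full inclusion, varied less than those of siSF3B1, so the p-values of the effect differences are approximate. In a limma fit of the logit of PSI, over all events scored in at least 40 of 48 libraries, the differences had the same direction, at -1.08 logit units (SE 0.42) for siSF3B1 and -1.09 (SE 0.42) for siRBM39. After adjustment over 30801 events, in place of 2 tests, neither was called (adjusted p = 0.345 and 0.928).

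The reads behind these values were few at the exon 1 junctions. Over the 8 libraries of 4OHT siSF3B1, 181 reads joined exons 1 and 2, 1085 joined exons 2 and 3, and 162 joined exon 1 to exon 3. With siNT in 4OHT the corresponding sums were 263, 1451 and 3. Reads joining exon 1 to exon 3 were thus seen in all 8 libraries of each siSF3B1 group (37 in all in DMSO), in 7 of 8 with siRBM39 in 4OHT (36 reads) and in 4 of 8 in DMSO (7 reads), but in 1 of 8 with siNT in 4OHT and 2 of 8 in DMSO (4 reads). The size of the fall depended on the inclusion junction used, an alternative chosen after the data were seen. From exon 1 to exon 2 reads alone, mean PSI with siSF3B1 was 52.7 in 4OHT and 62.7 in DMSO, 45.9 and 34.5 points below siNT, and that with siRBM39 in 4OHT was 89.1, 9.47 points below. From exon 2 to exon 3 reads alone the same falls were 12.8, 5.48 and 2.54 points. The direction was the same in each case. In DMSO siSF3B1, 2 libraries held too few reads for the lowest coverage score, so the exon was tested by permutation and not in the fit across all events.

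MCL1 intron 2 was also retained more often after SF3B1 knockdown. The percent of intron 2 (752 nt) retention had a lowest, median and highest value of 1.00, 4.44 and 9.01 with siNT in DMSO and 1.76, 3.79 and 6.41 in 4OHT. With siSF3B1 it was 6.25, 8.63 and 17.2 in DMSO and 8.57, 10.7 and 13.7 in 4OHT, so that all 4OHT siSF3B1 libraries exceeded those of siNT. With siRBM39 it was 5.36, 8.28 and 10.8 in DMSO and 5.22, 6.79 and 9.13 in 4OHT, overlapping with siNT. The mean rose by 5.45 points with siSF3B1 in DMSO (limma adjusted p = 0.000113) and by 6.92 points in 4OHT (adjusted p = 4.01e-06). The DMSO call was not held without replicate 1 of each siRNA (3.72 points), with siSF3B1-13 alone (4.60) or against siNT1 alone (4.89), since a call also required 5 points. The siRBM39 differences stayed below 5 points, at 3.39 in DMSO (adjusted p = 0.0135) and, for 4OHT, at 2.93 (adjusted p = 0.0359). Intron 1 (351 nt) was chosen after its values were seen and was not tested. It reached the lowest coverage score in 44 of 48 libraries, too few for the fit used for intron 2. That coverage sufficed for the limma fit described above for exon 2, but intron 1 failed its filter for balanced intron reads. Mean retention of intron 1 was 5.83% and 7.26% with siNT in DMSO and 4OHT, and 29.7% and 19.8% with siSF3B1. With siRBM39 it was 14.9% and 16.8%. These means rest on 9 to 86 reads per library.

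Across the whole family, 7 of the 62 events passed the coverage, range and balance filters and were tested among 13839 events. BCL2L1 had 3 of them, BID 2, and MCL1 and BAX 1 each. Calling required both an adjusted p below 0.05 and 5 points of difference. With siSF3B1, 3 of the 7 were called in DMSO, where 19.8% of all tested events were called, and 3 in 4OHT against 23% of all. With siRBM39, 1 was called in DMSO against 5.66% of all and 2 in 4OHT against 6.27%. Between 4OHT and DMSO with siNT no member event was called by limma, against 0.882% of all events, although 2 had an unadjusted p under 0.05. None was called between siSF3B1 and siRBM39 in DMSO (17.5% of all called, 1 member event at an unadjusted p under 0.05) or in 4OHT (20% of all, 1 member event). None was called for the difference of the siSF3B1 effect between treatments (0.311% of all, 1 at an unadjusted p under 0.05) or of the siRBM39 effect (0.00723% of all, 0 at an unadjusted p under 0.05). In the wider fit of events scored in 40 of 48 libraries, 13 member events were tested, of which 5 were called with siSF3B1 in DMSO (17.3% of all), 7 in 4OHT (21.1%), 1 with siRBM39 in DMSO (4.75%) and 3 in 4OHT (5.34%). Between the knockdowns that fit called 2 of the 13 in DMSO (14.8% of all) and 3 in 4OHT (17.8%). MCL1 exon 2 was called in both treatments, the BAX 52-nt exon in DMSO, and the BBC3 191-nt exon and BCL2L2 480-nt intron in 4OHT. The remaining member events lacked a PSI in some library (19), fell under the coverage score (17), ranged over less than 5 points (12), were the reference site of an alternative pair (5) or were introns with unbalanced reads (2).

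In BCL2L1 mRNA the longer form that keeps the 18 bases shown above rose with both knockdowns in both treatments. Its share had a lowest, median and highest value of 28.6, 33.6 and 41.3% with siNT in DMSO and 23.3, 29.6 and 47.8% in 4OHT. With siSF3B1 it was 45.03, 53.5 and 62.2% in DMSO and 46.2, 55.0 and 60.6% in 4OHT. With siRBM39 it was 44.7, 50.3 and 54.1% in DMSO and 42.4, 55.8 and 65.2% in 4OHT. Every knockdown library in DMSO lay above all siNT libraries, whereas in 4OHT a single siNT library reached into the knockdown range. The mean rose by 19.8 points (adjusted p = 1.56e-05) and 21.7 points (adjusted p = 1.5e-06) with siSF3B1 in DMSO and 4OHT, and by 15.8 points (adjusted p = 0.00166) and 23.2 points (adjusted p = 2.76e-06) with siRBM39. Without the library that stood apart the last rise was 21.8 points. The knockdowns were not told apart at this site (DMSO: 4.04 points, adjusted p = 0.434; 4OHT: -1.48 points, adjusted p = 0.781). These 18 bases are untranslated. The pair of 5′ splice sites known to separate BCL-XL from the short BCL-XS was not analysed here.

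The BAX exons shown above were included less often after SF3B1 knockdown. For the 147-nt exon the lowest, median and highest PSI were 98.1, 99.2 and 100 with siNT in DMSO and 92.0, 96.4 and 97.2 in 4OHT. With siSF3B1 they were 88.9, 93.0 and 94.8 in DMSO, below every control, and 87.0, 90.7 and 92.0 in 4OHT. The siRBM39 values were 87.5, 96.6 and 99.2 in DMSO and 82.3, 90.2 and 95.0 in 4OHT, overlapping with siNT in both treatments. The mean difference with siSF3B1 was -6.58 points in DMSO (adjusted p = 3.59e-08) and -5.73 points in 4OHT (adjusted p = 0.00204), and with siRBM39 in 4OHT it was -6.43 points (adjusted p = 0.00825). The last call was lost without replicate 3 of each siRNA (-5.22 points, adjusted p = 0.134) and with siRBM39-08 alone (-3.15 points). The p threshold but not the 5-point minimum was passed by -3.35 points with siRBM39 in DMSO and by -3.41 points between 4OHT and DMSO with siNT.

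The 52-nt exon of BAX, chosen after its values were seen, entered only the wider fit. Its mean PSI was 98.9 and 97.9 with siNT in DMSO and 4OHT, 87.6 and 83.4 with siSF3B1, and 95.5 and 91.8 with siRBM39. It fell by 11.3 points (adjusted p = 1.09e-07) and 14.5 points (adjusted p = 1.12e-07) with siSF3B1 in DMSO and 4OHT and by 6.11 points with siRBM39 in 4OHT (adjusted p = 0.000343). The 87-nt intron between the 2 exons, which failed the balance filter and was not tested, was retained at means of 14.8% and 16.4% with siNT, 23.1% and 29.2% with siSF3B1, and 14.6% and 12.2% with siRBM39, in DMSO and 4OHT respectively.

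In BBC3, which encodes the BH3-only protein PUMA, an intron and the exon next to it were chosen after their values were seen. Its 1403-nt intron was retained at means of 3.21% and 3.87% with siNT in DMSO and 4OHT, 3.92% and 4.05% with siRBM39, and 16.6% and 26.9% with siSF3B1, from 8 to 140 reads per library. It was tested in neither fit, since coverage was too low for the main fit and it failed the balance filter of the wider fit. The 191-nt exon had mean PSI values of 99.2 and 99.4 with siNT, 94.9 and 93.2 with siSF3B1, and 99.8 and 100 with siRBM39. In the wider fit it fell by 6.18 points with siSF3B1 in 4OHT (adjusted p = 2.41e-06), and its difference in DMSO was -4.33 points. Mean retention of the 480-nt intron of BCL2L2 was 13.8% and 3.88% with siNT in DMSO and 4OHT, 19.3% and 12.9% with siSF3B1, and 10.98% and 4.79% with siRBM39. Its rise of 9.07 points in 4OHT passed in the wider fit (adjusted p = 0.00453). The exons that separate BIM isoforms in BCL2L11 were covered by at most 9 reads per library, so a shift between them was not detectable at this depth, and BAK1 had no cassette exon event.

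**Figure D2:**
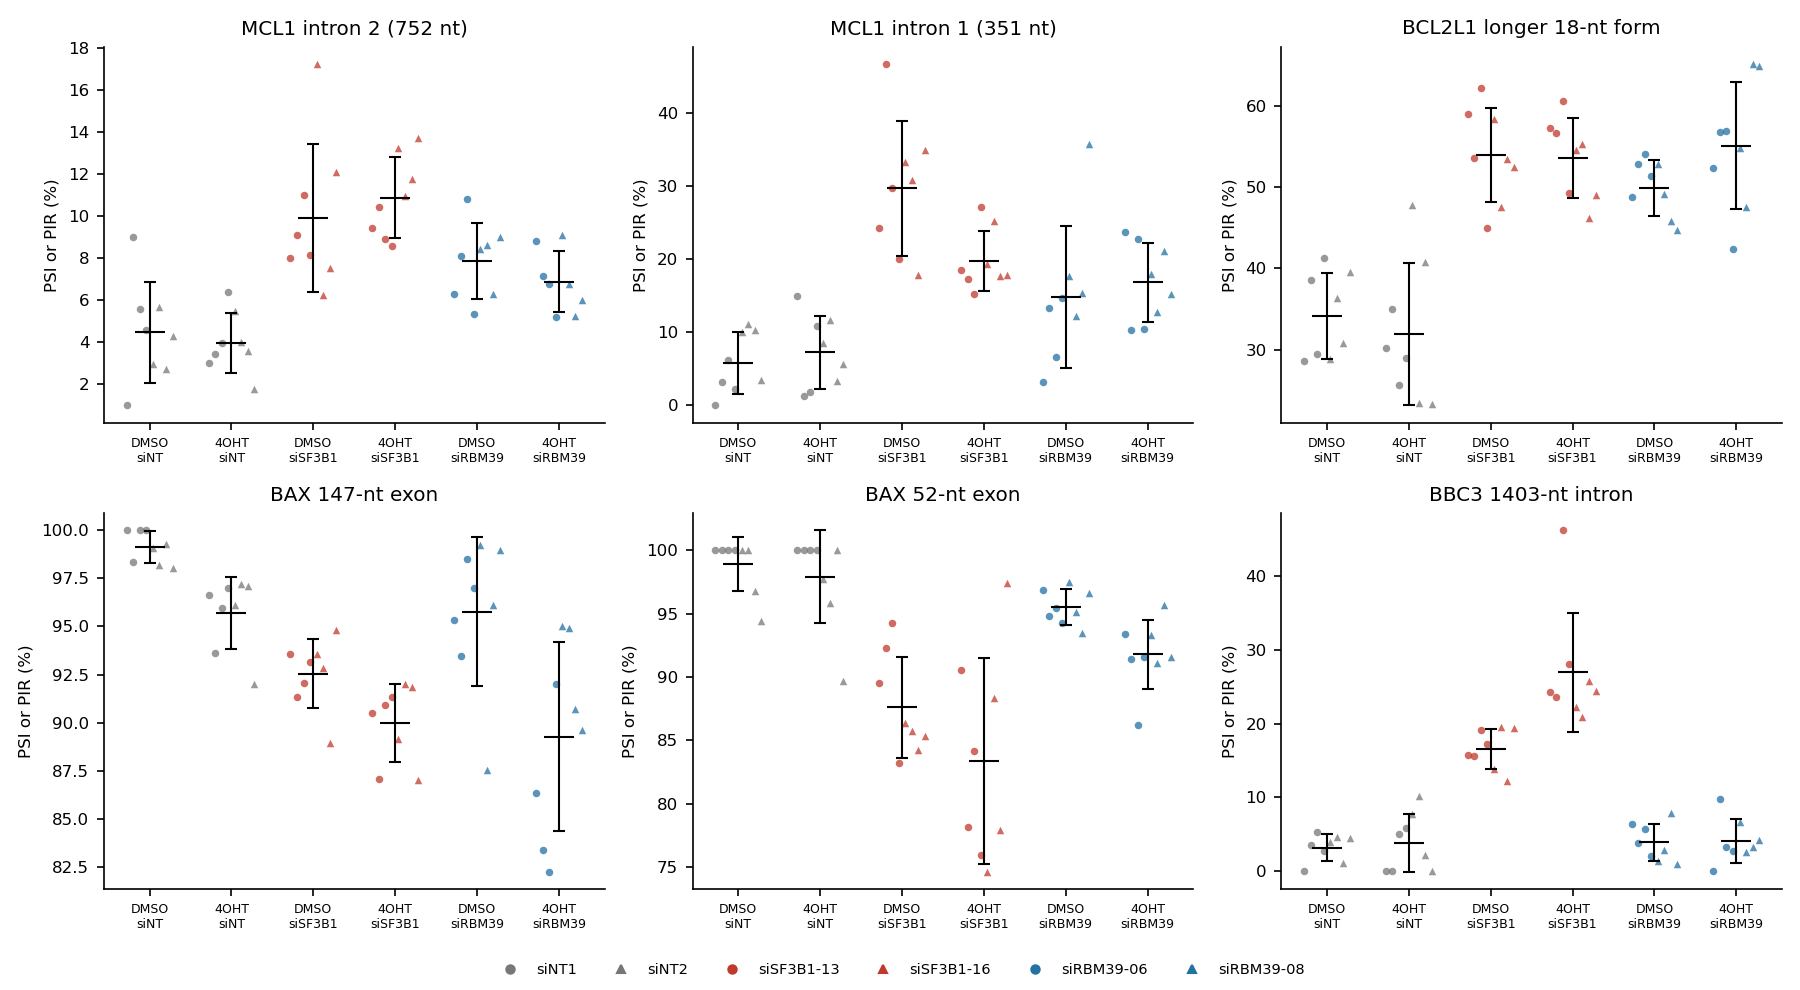
PSI or percent retention (%, y axes) per library in the 6 groups for 6 member events: MCL1 introns 2 and 1, the longer BCL2L1 form, the BAX 147-nt and 52-nt exons and the BBC3 1403-nt intron, with shape and colour by siRNA and a black bar for the mean ± SD of 8 libraries. The longer BCL2L1 form averages 49.9 to 55.1% in the 4 knockdown groups and 31.9 to 34.2% with siNT, and retention of the BBC3 intron averages 16.6 and 26.9% with siSF3B1 and 3.21 to 4.05% in the other groups. MCL1 intron 1 and the BBC3 intron were not tested.

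Turning to mRNA levels, all 10 members exceeded the minimum of 10000 counts over the 48 libraries and were tested among 9991 genes with edgeR. Per kilobase, the mean over all 48 libraries was 149 cRPKM for MCL1, followed by BAX (103), BCL2L1 (57.3), PMAIP1 (47.6), BID (35.5), BBC3 (15.7), BCL2L2 (15.4) and BAK1 (14.8). BCL2L11 (1.81) and BCL2 (0.943) were the lowest. The order differed between groups, since BAX exceeded MCL1 in DMSO with siSF3B1 (144 against 76.3 cRPKM) and with siRBM39 (111 against 90.4). All further levels are in CPM, which compare a gene between libraries but not with another gene.

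**Figure D3:**
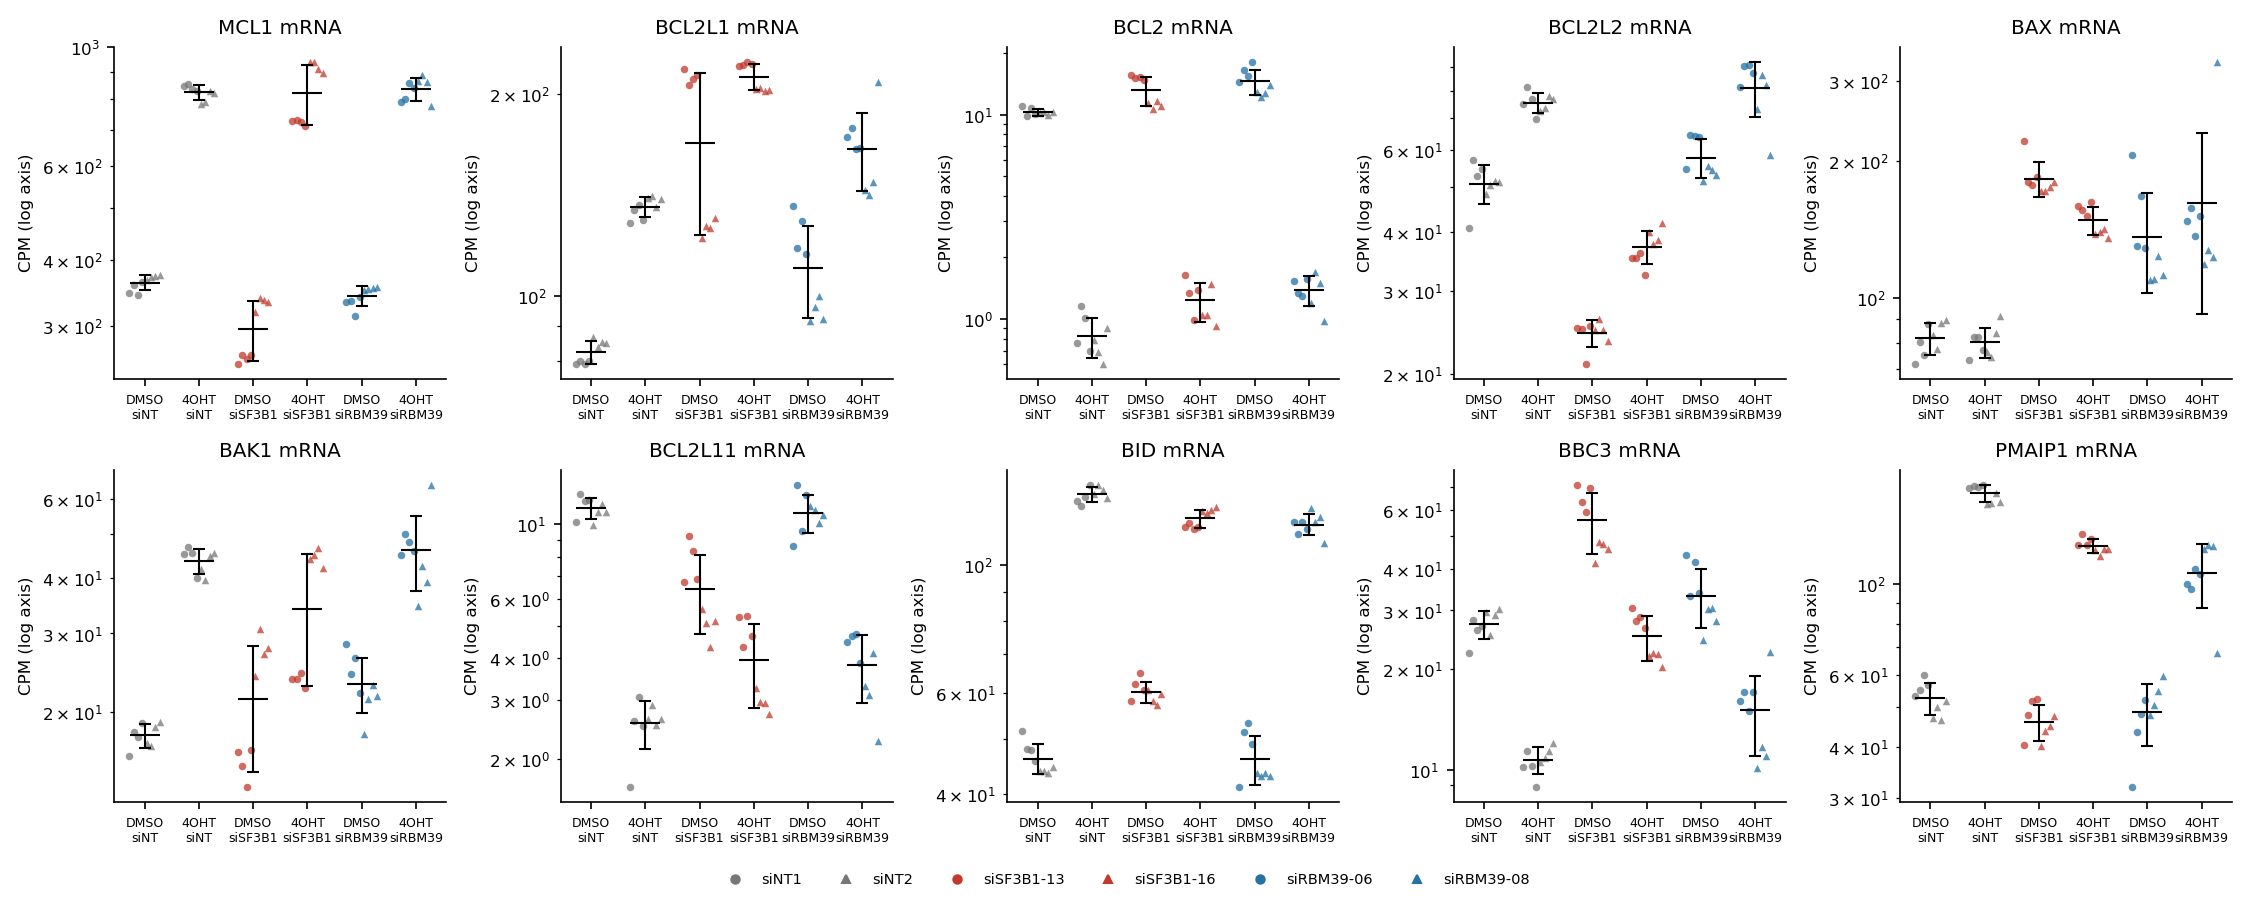
CPM of the 10 members (log axes) in the 6 groups, with a point per library, shape and colour by siRNA, and a black bar for the mean ± SD of 8 libraries. MCL1, BID and PMAIP1 are higher in all 4OHT groups than in all DMSO groups, BCL2 is lower, and BCL2L2 is lowest with siSF3B1 within each treatment.

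The 4OHT treatment with siNT is the comparison of RAS-induced with uninduced cells. In it 9 of 10 members changed, 6 higher and 3 lower, against 78.1% of all genes. The median log2 fold change of the members was 0.65 and that of all genes -0.00. The genes that rose were MCL1, BCL2L1, BCL2L2, BAK1, BID and PMAIP1, those that fell were BCL2, BCL2L11 and BBC3, and BAX did not pass. BCL2L11 and BBC3 are BH3-only activators of apoptosis, whereas BID and PMAIP1, of the same class, moved the other way. Of the fibroblast markers, 8 of 9 were lower in the same comparison, and their part in these changes was not tested.

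With SF3B1 knockdown 9 members were called in each treatment, 5 higher and 4 lower, against 72.7% of all genes in DMSO and 77% in 4OHT. The medians over the members were 0.31 and 0.29 on the log2 scale, and those over all genes 0.02 and 0.03. BCL2L1, BCL2, BAX and BBC3 rose in both treatments, and BCL2L2 fell in both. PMAIP1 fell in 4OHT, and its fall in DMSO was at the threshold (-0.19, adjusted p = 0.049). With RBM39 knockdown 5 members were called in DMSO, all higher, against 46.1% of all genes, and 7 in 4OHT, 5 higher and 2 lower, against 56.4%. Without the library that stood apart 8 were called in 4OHT. The medians were 0.23 and 0.20 over the members and 0.02 and 0.05 over all genes. BCL2L1, BCL2 and BAX rose in both treatments. Since the siSF3B1 and siRBM39 comparisons share their siNT libraries, their values stand side by side only, and the knockdowns were compared directly. Between them 7 members differed in DMSO (67.7% of all genes) and 5 in 4OHT (71.4%), or 4 in 4OHT without the library that stood apart.

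**Figure D4:**
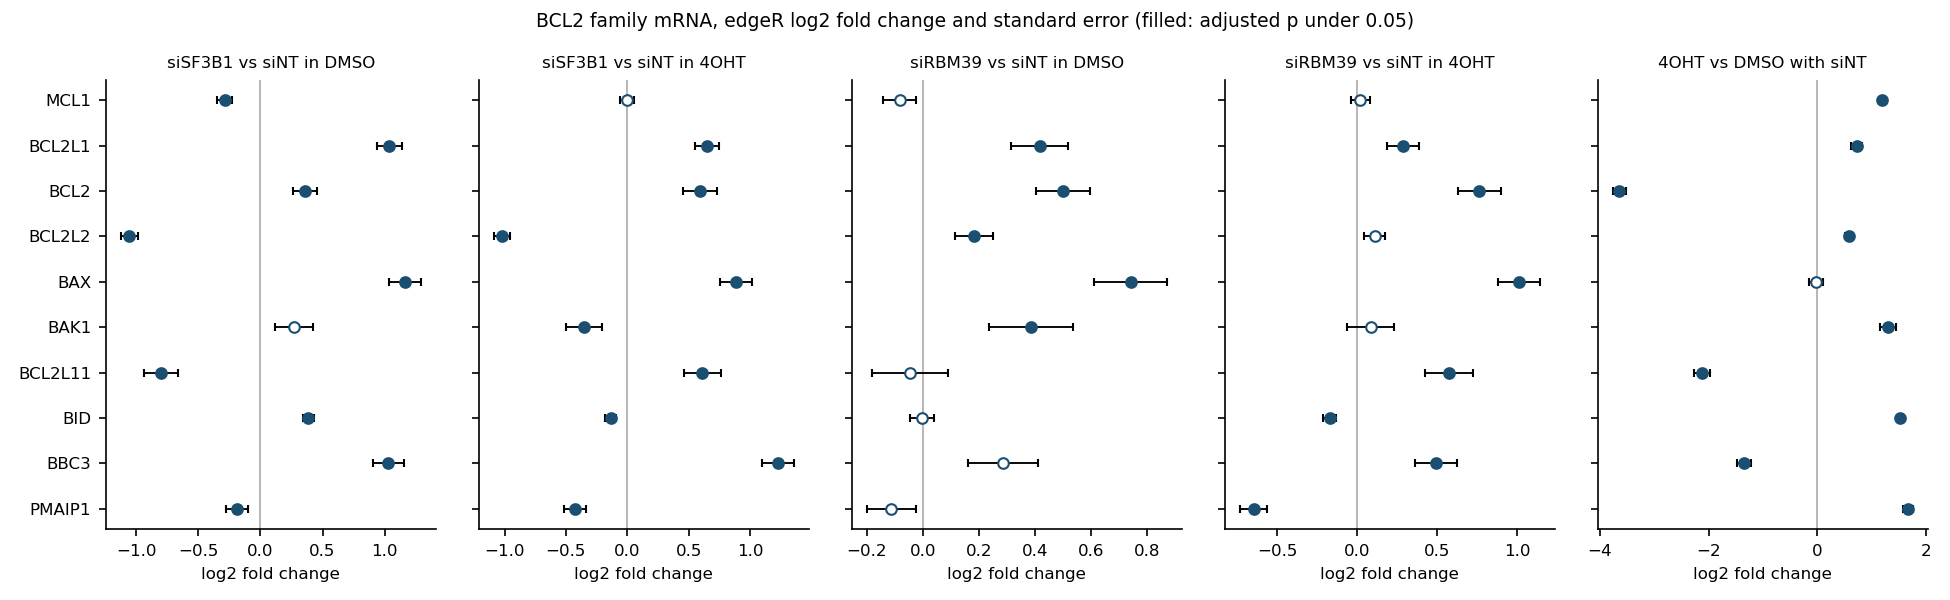
Log2 fold change (x axis, bars are SE) of the 10 members in 5 comparisons from the edgeR fit of 48 libraries, with filled points for an adjusted p under 0.05; the x axes differ between panels. BAX and BCL2L1 are filled and positive in all 4 knockdown comparisons, and BCL2 has the lowest value, -3.64, between 4OHT and DMSO.

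Among the anti-apoptotic genes, MCL1 followed the treatment more than the siRNA. Its lowest, median and highest CPM with siNT were 344, 365 and 374 in DMSO and 781, 828 and 854 in 4OHT, groups that did not overlap. The siSF3B1 values were 255, 292 and 339 in DMSO and 711, 812 and 938 in 4OHT. With siRBM39 they were 313, 346 and 355 in DMSO and 775, 849 and 888 in 4OHT. From lowest to highest mean, the order was siSF3B1, siRBM39 and siNT in DMSO, then siSF3B1, siNT and siRBM39 in 4OHT, with a gap only between the treatments. MCL1 rose by 1.19 on the log2 scale (SE 0.06, adjusted p = 3.9e-23) in 4OHT. It fell by 0.29 with siSF3B1 in DMSO (SE 0.06, adjusted p = 3.07e-05), where all 8 libraries lay below the controls.

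In 4OHT the pooled MCL1 difference with siSF3B1 was -0.00 (adjusted p = 0.966), and the siRNAs went in opposite directions. Mean MCL1 was 724 ± 8.74 CPM with siSF3B1-13 and 919 ± 21.7 with siSF3B1-16 (SD, n = 4 each), against 823 ± 25.8 with siNT (n = 8). With siSF3B1-13 alone the log2 fold change was -0.21 (adjusted p = 1.32e-05) and with siSF3B1-16 alone 0.16 (adjusted p = 0.000298). In DMSO the siRNA means were 261 ± 5.06 and 332 ± 8.58, both below the siNT mean of 362 ± 11.6. The skipping of exon 2 did not split in this way, with PSI means of 78.7 and 80.8 for these siRNAs in 4OHT. With siRBM39 the pooled MCL1 differences did not pass (-0.08 for DMSO, with an adjusted p of 0.256, and 0.02 for 4OHT, with an adjusted p of 0.798).

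BCL2L1, which encodes BCL-XL, rose in every comparison with siNT and with 4OHT. Its lowest, median and highest CPM were 79.0, 81.8 and 86.9 in DMSO siNT and 128, 136 and 141 in 4OHT siNT. After SF3B1 knockdown they were 122, 168 and 218 in DMSO and 202, 212 and 223 in 4OHT, and with siRBM39 91.7, 108 and 136 and 141, 166 and 209. No knockdown library lay below the highest control of its treatment. The log2 fold changes with siSF3B1 were 1.04 in DMSO (SE 0.10, adjusted p = 1.15e-12) and 0.65 in 4OHT (SE 0.10, adjusted p = 1.64e-07). The siRBM39 values were 0.42 in DMSO (SE 0.10, adjusted p = 0.000651), or 0.21 and not called with siRBM39-08 alone, and 0.29 in 4OHT (SE 0.10, adjusted p = 0.0137), the latter 0.22 and not called without replicate 4 of each siRNA, and 0.23 (adjusted p = 0.041) without the library that stood apart. The 4OHT call was also lost with siRBM39-08 alone (0.24) and against siNT1 (0.32) or siNT2 (0.25) alone. The siSF3B1 siRNAs differed in DMSO, at 212 ± 5.11 against 126 ± 3.61 CPM (n = 4 each). The order of groups ran from DMSO siNT, apart from the rest, through DMSO siRBM39 and 4OHT siNT, which overlapped, to the overlapping 4OHT siRBM39, DMSO siSF3B1 and 4OHT siSF3B1.

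BCL2 was the member with the widest span between treatments. CPM had a lowest, median and highest value of 9.80, 10.2 and 10.96 in DMSO siNT and 0.601, 0.779 and 1.15 in 4OHT siNT. In siSF3B1 libraries the figures were 10.7, 13.2 and 15.6 in DMSO and 0.919, 1.20 and 1.64 in 4OHT, and with siRBM39 12.2, 14.2 and 18.1 and 0.976, 1.43 and 1.71. In 4OHT these values rest on 25 to 71 counts per library, and the gene passed the count minimum through its DMSO libraries. No 4OHT library came near the DMSO range, and the log2 fold change with siNT was -3.64 (SE 0.12, adjusted p = 3.12e-30). BCL2 rose with siSF3B1 by 0.36 in DMSO (SE 0.10, adjusted p = 0.00117) and 0.59 in 4OHT (SE 0.14, adjusted p = 0.000208). With siRBM39 it rose by 0.50 (SE 0.10, adjusted p = 3.41e-05) and 0.76 (SE 0.14, adjusted p = 5.87e-06). The siSF3B1 value in DMSO was 0.11 and not called with siSF3B1-16 alone. Neighbouring groups overlapped within each treatment.

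BCL2L2, which encodes BCL-W, fell with SF3B1 knockdown. Its lowest, median and highest CPM were 40.9, 51.3 and 57.1 in DMSO siNT and 69.6, 75.9 and 81.3 in 4OHT siNT. With siSF3B1 they were 20.98, 24.8 and 26.2 in DMSO and 32.5, 37.03 and 41.8 in 4OHT, and with siRBM39 51.5, 54.9 and 64.5 and 58.5, 84.3 and 90.7. All siSF3B1 libraries lay below those of siNT and siRBM39 in the same treatment, and in order of means 4OHT siSF3B1 overlapped with DMSO siNT. The log2 fold changes were -1.06 (SE 0.07, adjusted p = 1.4e-18) and -1.02 (SE 0.07, adjusted p = 2.47e-18), with no detectable difference between treatments (0.04, adjusted p = 0.795). Against siRBM39 they were -1.24 in DMSO and -1.13 in 4OHT (adjusted p = 8.34e-21 and 1.22e-19). With siRBM39 the gene rose by 0.18 in DMSO (adjusted p = 0.0237), a call lost without replicate 1, 2 or 3. In 4OHT its difference of 0.11 (adjusted p = 0.164) became 0.16 (adjusted p = 0.013) without the library that stood apart. BCL2L2 shares its sequence with a readthrough transcript into PABPN1, so its counts are uncertain.

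Of the effectors, BAX, the pore-forming protein of the cytosol, rose with every knockdown. CPM had a lowest, median and highest value of 71.7, 81.8 and 89.7 in DMSO siNT and 73.3, 79.6 and 91.4 in 4OHT siNT, overlapping groups that did not differ detectably (-0.03, adjusted p = 0.851). The siSF3B1 values were 172, 178 and 221 in DMSO and 136, 146 and 163 in 4OHT. With siRBM39 they were 110, 127 and 206 in DMSO and 119, 142 and 329 in 4OHT. All knockdown libraries lay above all siNT libraries. BAX rose with siSF3B1 by 1.16 on the log2 scale in DMSO (SE 0.13, adjusted p = 6.92e-11) and 0.89 in 4OHT (SE 0.13, adjusted p = 4.63e-08). It rose with siRBM39 by 0.74 (SE 0.13, adjusted p = 6.12e-06) and 1.01 (SE 0.13, adjusted p = 6.5e-09). The highest value, 329, came from the library that stood apart; the other 7 averaged 138 ± 14.97 CPM (SD, n = 7), and without it the last rise was 0.78 (adjusted p = 1.95e-10). The 4 knockdown groups overlapped in order, and siSF3B1 exceeded siRBM39 in DMSO (0.42, adjusted p = 0.00367), a call lost with siSF3B1-16 alone (0.35). It was not told apart from siRBM39 in 4OHT (-0.13, adjusted p = 0.386), where the value turned to 0.11 (adjusted p = 0.276) without the library that stood apart.

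BAK1, the other effector, followed 4OHT and differed between siRNAs to the same target. Its lowest, median and highest CPM were 15.98, 17.8 and 18.98 in DMSO siNT and 39.5, 44.9 and 46.7 in 4OHT siNT, a rise of 1.30 (SE 0.15, adjusted p = 1.38e-10). With siSF3B1-13 the means were 15.4 ± 1.32 CPM in DMSO and 23.6 ± 0.741 in 4OHT, and with siSF3B1-16 27.4 ± 2.69 and 44.4 ± 1.91 (SD, n = 4 each). The pooled siSF3B1 fall of 0.36 in 4OHT (adjusted p = 0.0279) was therefore 0.03 and positive with siSF3B1-16 alone, and it was lost without replicate 1, 2 or 4. The pooled DMSO value of 0.27 did not pass (adjusted p = 0.104) but was 0.62 and called with siSF3B1-16 alone. With siRBM39 the libraries ranged from 17.9 to 28.4 CPM in DMSO and from 34.5 to 64.5 in 4OHT. The rise of 0.38 in DMSO (adjusted p = 0.0331) was lost without replicate 1, 2 or 3, and 4OHT gave 0.08 (adjusted p = 0.648), or 0.00 without the library that stood apart. Each group overlapped with the next in order.

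Among the BH3-only genes, BCL2L11 (BIM) changed in opposite directions with SF3B1 knockdown in the 2 treatments. CPM had a lowest, median and highest value of 9.98, 11.2 and 12.3 in DMSO siNT and 1.65, 2.62 and 3.08 in 4OHT siNT, a fall of 2.11 on the log2 scale (SE 0.15, adjusted p = 7.91e-18). After SF3B1 knockdown they were 4.33, 6.16 and 9.21 in DMSO, below every control, and 2.74, 3.79 and 5.35 in 4OHT. The siRBM39 values were 8.64, 10.8 and 13.1 in DMSO and 2.27, 4.01 and 4.73 in 4OHT. BCL2L11 fell by 0.80 with siSF3B1 in DMSO (SE 0.14, adjusted p = 1.51e-06) and rose by 0.61 in 4OHT (SE 0.15, adjusted p = 0.000378). With siRBM39 it rose by 0.57 in 4OHT (SE 0.15, adjusted p = 0.00121), and in DMSO the difference was -0.05 (adjusted p = 0.809). The 4OHT rises were 0.21 with siSF3B1-16 alone and 0.33 with siRBM39-08 alone, neither called, and the siRBM39 rise was 0.65 without the library that stood apart. In 4OHT the gene had 54 to 208 counts per library, and in the order of means, from 4OHT siNT up to DMSO siNT, each group overlapped with the next.

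BID, which caspase-8 cleaves to link death receptors to mitochondria, rose with 4OHT and kept narrow ranges within groups. Its lowest, median and highest CPM were 43.5, 45.2 and 51.6 in DMSO siNT and 126, 132 and 138 in 4OHT siNT, a rise of 1.52 (SE 0.04, adjusted p = 3.14e-33). In siSF3B1 libraries the figures were 57.2, 60.2 and 65.1 in DMSO and 115, 121 and 126 in 4OHT, and with siRBM39 41.2, 43.6 and 53.2 and 109, 119 and 125. In DMSO siSF3B1 stood above both other groups, whereas in 4OHT siNT stood above both knockdowns. BID rose by 0.39 with siSF3B1 in DMSO (SE 0.04, adjusted p = 4.45e-11) and fell by 0.14 in 4OHT (SE 0.04, adjusted p = 0.00315), the latter -0.09 and not called with siSF3B1-16 alone. With siRBM39 it fell by 0.17 in 4OHT (SE 0.04, adjusted p = 0.000485) and did not differ detectably in DMSO (-0.00, adjusted p = 0.946).

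BBC3, a target of p53 that encodes PUMA, rose with SF3B1 knockdown in both treatments and fell with 4OHT. CPM had a lowest, median and highest value of 22.5, 27.6 and 30.4 in DMSO siNT and 8.89, 10.7 and 12.05 in 4OHT siNT, a fall of 1.35 (SE 0.13, adjusted p = 3.87e-13). With siSF3B1 they were 41.6, 53.7 and 71.1 in DMSO and 20.3, 24.5 and 30.6 in 4OHT, above every control of the same treatment. With siRBM39 they were 24.5, 31.8 and 43.8 in DMSO and 10.2, 15.5 and 22.5 in 4OHT. The siSF3B1 rises were 1.03 (SE 0.13, adjusted p = 5.46e-10) and 1.22 (SE 0.13, adjusted p = 9.09e-12) in DMSO and 4OHT. With siRBM39, BBC3 rose by 0.49 in 4OHT (SE 0.13, adjusted p = 0.00119), or 0.39 without the library that stood apart, and its DMSO value of 0.29 did not pass (adjusted p = 0.0561). The siRBM39 siRNAs differed. In 4OHT the siRBM39-06 libraries had 15.02 to 17.17 CPM. Those of siRBM39-08 had 10.18 to 11.74, within the siNT range, except for the library that stood apart (22.48). In DMSO the means were 38.2 with siRBM39-06 and 28.3 with siRBM39-08, against 27.3 with siNT. SF3B1 knockdown exceeded RBM39 knockdown by 0.75 in DMSO (adjusted p = 9.25e-07) and, for 4OHT, by 0.73 (adjusted p = 1.78e-06). Each group overlapped with the next in order of means, from 4OHT siNT up to DMSO siSF3B1. Whether reads in the retained 1403-nt intron add to the BBC3 counts was not tested.

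PMAIP1, which encodes NOXA, a partner of MCL1, rose with 4OHT and fell with both knockdowns in 4OHT. Its lowest, median and highest CPM were 46.6, 52.5 and 59.9 in DMSO siNT and 157, 169 and 174 in 4OHT siNT, a rise of 1.66 (SE 0.09, adjusted p = 3.7e-22). The siSF3B1 values were 40.1, 46.3 and 52.4 in DMSO and 117, 123 and 132 in 4OHT, and with siRBM39 31.9, 49.4 and 59.4 and 67.7, 107 and 124. Both 4OHT knockdown groups lay below all 4OHT controls, while the DMSO groups overlapped. PMAIP1 fell in 4OHT by 0.43 with siSF3B1 (SE 0.09, adjusted p = 2.2e-05) and by 0.65 with siRBM39 (SE 0.09, adjusted p = 1.54e-08), or by 0.58 without the library that stood apart. In DMSO the siSF3B1 value of -0.19 was at the threshold (adjusted p = 0.049) and was lost without replicate 1, 2 or 3, under limma-voom, with no count filter or 5 counts per library, with siSF3B1-13 alone and against siNT2 alone. The siRBM39 value was -0.11 (adjusted p = 0.296).

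Whether a knockdown acted differently in 4OHT and in DMSO was tested as the difference of its effects. For siSF3B1 this difference was called for 5 members, 2 higher and 3 lower, against 37.8% of all genes. It was 1.41 for BCL2L11 (SE 0.20, adjusted p = 2.97e-07), -0.52 for BID (SE 0.06, adjusted p = 1.23e-09), -0.63 for BAK1 (SE 0.21, adjusted p = 0.0167), -0.39 for BCL2L1 (SE 0.14, adjusted p = 0.0244) and 0.28 for MCL1 (SE 0.08, adjusted p = 0.0056). The BCL2L1 call was lost on leaving out each replicate number in turn, under limma-voom and against siNT1 or siNT2 alone. Its difference was -0.02 with siSF3B1-16 alone. The BAK1 call was lost without replicate 1 or 2 and against siNT1 or siNT2 alone, and the MCL1 call was lost against siNT1 alone (0.22). For siRBM39 the difference was called for 3 members, 1 higher and 2 lower, against 14.1% of all genes. It was 0.62 for BCL2L11 (SE 0.20, adjusted p = 0.0306), -0.17 for BID (SE 0.06, adjusted p = 0.0483) and -0.54 for PMAIP1 (SE 0.12, adjusted p = 0.00156), the last -0.46 without the library that stood apart and -0.49, not called, against siNT1 alone. The BCL2L11 call was lost without replicate 1, 2 or 3, with no count filter, with siRBM39-08 alone and against siNT1 or siNT2 alone. The BID call was lost without replicate 2, 3 or 4, with siRBM39-08 alone (-0.07) and against siNT1 alone (-0.09). It also narrowly failed under limma-voom, with DESeq2 size factors in edgeR, with no count filter and with a replicate block.

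Direct comparison of the knockdowns added the following. In DMSO, siSF3B1 gave lower MCL1 (-0.20, adjusted p = 0.0022) and BCL2L11 (-0.75, adjusted p = 4.95e-06) and higher BCL2L1 (0.62, adjusted p = 4.95e-07) and BID (0.39, adjusted p = 4.48e-11) than siRBM39, beside the BCL2L2, BAX and BBC3 differences above. In 4OHT, BCL2L1 was higher (0.36, adjusted p = 0.0014) and BAK1 lower (-0.44, adjusted p = 0.00763) with siSF3B1. The BAK1 call was lost with siSF3B1-16 alone (-0.06), with siRBM39-08 alone (-0.41) and without replicate 4 of each siRNA (-0.32), and it was -0.36 (adjusted p = 0.0258) without the library that stood apart. The MCL1 difference in DMSO was -0.05 and not called with siSF3B1-16 alone. The PMAIP1 difference in 4OHT, 0.22 (adjusted p = 0.0193), was 0.15 and not called without the library that stood apart. BCL2 was not told apart between the knockdowns in either treatment in the main fit. In DMSO it was lower with siSF3B1 and called under 3 alternatives. These were 1 group per siRNA (-0.15), siSF3B1-16 alone (-0.38) and siRBM39-06 alone (-0.30).

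Other genes of the apoptosis pathway were taken from lists, described by counts against the same backgrounds as above. In 4OHT with siSF3B1, the list of caspases and apoptosome parts had 7 genes higher and 5 lower of 12 tested, with a median log2 fold change of 0.17, and with siRBM39 3 higher and 0 lower (median 0.11). CASP2, an initiator caspase, rose by 1.32 and 0.69, from 35.8 ± 1.16 CPM with siNT to 89.8 ± 4.90 with siSF3B1 and 58.0 ± 5.21 with siRBM39 (SD, n = 8 each). The executioner caspase CASP6 fell by 1.30 with siSF3B1 and had 0.05 with siRBM39 (adjusted p = 0.534).

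The 6 inhibitors of caspases and death receptors held 4 lower and 1 higher with siSF3B1 in 4OHT (median -0.66), and 3 lower and 0 higher with siRBM39 (median -0.15). BIRC3 (cIAP2) fell by 2.63 with siSF3B1 and by 0.90 with siRBM39, from 30.6 ± 3.88 CPM to 4.95 ± 1.19 and 16.3 ± 4.77. BIRC2 (cIAP1) fell by 0.91 and 0.29, and CFLAR, which encodes the caspase-8 inhibitor FLIP, fell by 0.90 and 0.68. In DMSO the same list had 3 lower and 1 higher with siSF3B1 and 1 lower and 0 higher with siRBM39. BIRC3 itself was near 1.79 CPM there with siNT and rose by 4.09 with 4OHT.

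Of 14 other BCL2 family and BH3-only genes, 9 were tested. In 4OHT, 3 rose and 3 fell with siSF3B1 (median -0.05), and 1 rose and 6 fell with siRBM39 (median -0.21). BMF, a BH3-only gene, rose by 1.53 and 1.10, from 40.8 ± 1.29 CPM with siNT to 118 ± 20.7 with siSF3B1 and 87.4 ± 20.8 with siRBM39. BECN1, whose protein acts in autophagy and binds BCL2, fell by 1.15 and 0.45, and BNIP3, a mitochondrial BH3-like gene, fell by 1.15 and 0.41. Death receptors and adaptors (7 tested) had 3 higher and 3 lower with siSF3B1 (median 0.05) and 2 higher and 1 lower with siRBM39 (median 0.10). FAS rose by 0.84 and 0.20, RIPK1 fell by 0.44 and 0.31, and TRADD fell by 0.87 with siSF3B1 and had 0.18 with siRBM39 (adjusted p = 0.370).

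Genes known to control MCL1 protein turnover (6 tested of 7) had 2 higher and 3 lower with siSF3B1 in 4OHT (median -0.16) and 1 higher and 2 lower with siRBM39 (median -0.09). HUWE1, a ubiquitin ligase for MCL1, fell by 1.28 and 0.74, from 299 ± 22.3 CPM with siNT to 123 ± 12.1 and 180 ± 15.3. USP9X, which removes ubiquitin from MCL1, fell by 0.65 and 0.29. MARCH5, a ligase of the outer membrane, rose by 0.71 and 0.28. Of the outer membrane channels, VDAC2, which holds BAK, rose by 0.27 and 0.12, VDAC1 fell by 0.49 and 0.20, and VDAC3 rose by 0.48 with siSF3B1 and had -0.02 with siRBM39 (adjusted p = 0.635), so that 2 rose and 1 fell with siSF3B1 (median 0.27) and 1 rose and 1 fell with siRBM39 (median -0.02).

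The genes whose level was most like that of MCL1 over the 48 libraries, by Pearson's r of log2 CPM, were MME (0.986), IL1A (0.985), TNFSF15 (0.982), CXCL6 (0.982) and PDZD2 (0.982). The 48 points fall into the DMSO and 4OHT groups, so r mostly describes the gap between these treatments. MME, a membrane peptidase, averaged 42.9 ± 2.92 CPM with siNT in DMSO and 807 ± 29.4 in 4OHT (SD, n = 8 each), and 688 ± 88.8 with siSF3B1 and 765 ± 198 with siRBM39 in 4OHT. IL1A, a cytokine of the senescence secretome, averaged 0.2796 ± 0.131 and 51.4 ± 2.98 with siNT in DMSO and 4OHT, and 29.97 ± 9.47 with siSF3B1 and 36.3 ± 7.07 with siRBM39 in 4OHT.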

How the data were processed

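RNA from 48 libraries was sequenced after mRNA capture with the Watchmaker kits. The authors made gene counts and cRPKM (an RPKM corrected for mappability) and splicing tables with vast-tools and its hg19 library. The deposited count table holds raw counts per gene, the deposited cRPKM (RPKM) values are scaled by the authors per library and length, and the deposited splicing table gives a percent (PSI, or percent retention for introns) with a quality field holding the reads as a score per event and library. The submitters' processing notes also name edgeR and limma. A table of filtered, normalised CPM was not used, and 0 value columns lacked a sample.

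Groups followed the titles, with both siRNAs of a target pooled, as in the study. Genes with at least 10000 counts over 48 libraries were tested with the quasi-likelihood test of edgeR 4.0.16 (R 4.3.3, TMM scaling, Benjamini-Hochberg over 9991 genes, called at 0.05). CPM were TMM-scaled. Events needed a coverage score of at least VLOW and a PSI in each library, a PSI range of 5 points, and balanced intron reads, and the first site of each Alt3 or Alt5 set was left out. They were fitted with limma 3.58.1 on the logit of 0.01 + 0.98 × PSI/100. Called events also needed 5 points. MCL1 exon 2 failed the coverage filter and was compared by a two-sided exact permutation test. On simulated data for siSF3B1 against siNT in 4OHT, 192 of 200 changed genes were recovered with 9 false calls, and 195 of 200 changed events with 0 false calls. The simulation started from the DMSO siNT means and changed 200 of 9991 genes and 200 of 13839 events, far fewer than were called in the data. Every simulated event had the same read number, so recovery at events with few reads was not measured.

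The event table's coordinates do not lie in hg19, although that build is named, so exons were matched by exon and flanking intron lengths to the GENCODE annotation of GRCh37, and sequences were read there. Named were all members, each called member event, the 3 genes of each pathway list with the smallest adjusted p in either 4OHT knockdown comparison (1 of these genes is not reported here), and the 5 genes most like MCL1. Members, lists and tests were chosen with earlier results of these data known. No 2 libraries of the same siRNA and treatment agreed within sampling noise (72 pairs, lowest chi-square per degree of freedom 2.00). Replicate numbers showed no general pairing of libraries across groups (median correlation 0.0123, single pairs from -0.898 to 0.79). Whether some of the groups shared a batch was not tested. Alternatives were limma-voom, DESeq2 1.42.0, other filters and scalings, single siRNAs, a replicate block, and leaving out replicates or the library that stood apart.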

Additional observations from a re-analysis of the deposited data

Results flagged for a closer look

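Single libraries lay apart from the other 7 of their group in 4 of 84 groups checked, where chance alone gives about 1 in 20. BAX was 221 CPM in replicate 1 of siSF3B1-13 in DMSO, against 172 to 185 in the others, and 329 CPM in replicate 4 of siRBM39-08 in 4OHT, against 119 to 157. BCL2L11 was 1.65 CPM in replicate 1 of siNT1 in 4OHT, against 2.51 to 3.08. MCL1 exon 2 had a PSI of 97.7 in replicate 3 of siNT1 in 4OHT, against 100 in the other 7.

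Knockdown effects that differed between 4OHT and DMSO by a test of the difference itself are given as log2 values, 4OHT minus DMSO, from edgeR. For siSF3B1 they were 0.28 for MCL1, -0.39 for BCL2L1, -0.63 for BAK1, 1.41 for BCL2L11 and -0.52 for BID. For siRBM39 they were 0.62 for BCL2L11, -0.17 for BID and -0.54 for PMAIP1. For MCL1 exon 2 the difference was -10.6 points of PSI for siSF3B1 and -3.36 points for siRBM39. In the logit fit both kept their direction (-1.08 and -1.09 logit units, SE 0.42 each) and were not called after adjustment over 30801 events.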

How the results depend on the processing

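With edgeR, limma-voom, DESeq2 or other scalings, counts of called members stayed within 1.5 times the main count except as follows. Requiring 1.5-fold left 5 for siSF3B1 in DMSO, 1 and 3 for siRBM39 in DMSO and 4OHT, 4 and 2 between the knockdowns in DMSO and 4OHT, and 2 and 1 for the siSF3B1 and siRBM39 effect differences. For siRBM39 in DMSO, siRBM39-08 alone gave 2 and siNT1 or siNT2 alone 3 each; between the knockdowns in 4OHT, siRBM39-08 alone gave 3. The siSF3B1 effect difference gave 2 with siNT1 and 3 with siNT2, and that of siRBM39 gave 1 without the count filter, 5 with 1 group per siRNA and 0 with siNT1 alone. Leaving out replicates in turn gave 8 to 9 genes for siSF3B1 in DMSO and in 4OHT, 3 to 6 and 6 to 7 for siRBM39, 9 for 4OHT against DMSO, 7 and 3 to 5 between the knockdowns, and 3 to 4 and 1 to 2 for the effect differences. For member events it gave 2 to 3 and 3 for siSF3B1, 1 and 1 to 2 for siRBM39, and 0 in the other comparisons. Coverage in 40 of 48 libraries, added after the data were seen, gave 5 and 7 events for siSF3B1 in DMSO and 4OHT. Between the knockdowns it gave 2 and 3, against 14.8% and 17.8% of all events. A 10-point minimum gave 1 each for siSF3B1 in DMSO and 4OHT and 1 for siRBM39 in 4OHT. Without a minimum, 3 were called for siRBM39 in DMSO, 2 between treatments and 1 each between the knockdowns. For siRBM39 in 4OHT the plain logit, siRBM39-08, siNT1 or siNT2 alone gave 1 each. Between the knockdowns, no balance filter gave 1 in each treatment, and siSF3B1-16 alone 1 in 4OHT. For these alternatives, apart from coverage in 40 of 48 libraries, the share of all genes or events called is not given. A change in the member count was therefore not compared with the change over all genes or events. The MCL1 exon 2 difference without each replicate ranged from -10.5 to -8.64 and -21.0 to -19.4 points for siSF3B1 and from -0.873 to -0.157 and -4.89 to -3.07 for siRBM39. The siRBM39 value in DMSO turned positive with siRBM39-08 alone (0.356) and siNT1 alone (0.181). With siSF3B1-16 alone, log2 differences turned for MCL1 in 4OHT (0.16) and BAK1 in 4OHT (0.031) against siNT, BAK1 in DMSO (0.24), and MCL1 (0.14) and BCL2L11 (-0.37) in 4OHT against siRBM39. The cause was not tested.

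Replicate numbers gave a median correlation of 0.0123 over 264 same-number pairs (-0.898 to 0.79). The fit with a replicate block changed the call of BID alone, in the siRBM39 effect difference (-0.17, adjusted p = 0.0589). A separate mean per siRNA gives the same MCL1 exon 2 difference by construction and was not run, and the P_diff alternative has no value for effect differences. The single-junction values of exon 2 were also added after the data were seen. Depth limited BCL2L11 splicing and the exon 1 junctions of MCL1, among other events.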
